A study of Homo sapiens with 30 samples.

Results

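The window examined here spans 800 kb of chromosome 8, band 8q21, from 79900000 to 80700000 on GRCh38 (hg38), and holds TPD52 and ZBTB10. Its members are all entries of the 30 deposited peak lists whose summit, the highest point of a peak, lies in that span. They number 2747 of 4661359 entries in all, 1200 in the LNCaP lists and 1547 in the VCaP lists. The entries were chosen by position alone, but the locus itself was selected on earlier results of these data, among them a rise in the −log10 p rank of a TPD52 site in LNCaP at 10 nM androgen. The change from vehicle to 10 nM in LNCaP is therefore given as a description: sites past the threshold are counted, no p is given for them and nothing is read from the counts.

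Open chromatin was profiled by Omni-ATAC-seq, in which the Tn5 transposase cuts accessible DNA and tags it for sequencing. LNCaP and VCaP are established human prostate cancer lines that respond to androgen, and VCaP is known for its TMPRSS2 and ERG gene fusion. All cells had 48 hours in medium with 8% charcoal-treated serum, which is low in steroids, and then 24 hours of treatment. The stated question is how chromatin responds to low against high androgen. LNCaP was treated with vehicle or with 0.03, 0.06, 0.1 or 10 nM R1881, a synthetic androgen, and VCaP with vehicle or with 0.01, 0.03, 0.06 or 10 nM. Each of the 10 groups holds 3 libraries, numbered 3, 4 and 5 in LNCaP and 1, 2 and 4 in VCaP. Nothing in the labels says whether replicates came from separate cultures, so p-values measure the spread between these libraries, which may be technical.

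TPD52, tumor protein D52, is a small coiled-coil protein linked to vesicle trafficking, and its gene is known to be induced by androgen and often gained in copy number in prostate cancer. ZBTB10 is a zinc finger transcription factor of the BTB family known to repress specificity protein genes such as SP1. MRPS28, a mitochondrial ribosome subunit gene, lies beside TPD52, and ZNF704 encodes another zinc finger protein. When the androgen receptor binds hormone it enters the nucleus and binds DNA elements that can lie far from a gene, and such elements are often seen as open chromatin. A site is assigned here to a gene only by position, which does not show that the gene is controlled from it.

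The LNCaP lists ran from 135254 to 223998 entries and the VCaP lists from 105034 to 170787, and 60 to 107 and 76 to 125 of these lay in the window. Read numbers are unknown. A relative depth, the background pileup recovered from fold enrichment and −log10 p, was 3.14 to 5.35 in LNCaP and 1.25 to 2.86 in VCaP, where vehicle libraries 1 and 2 had the lowest values, 1.34 and 1.25. Most results at single sites that rest on VCaP vehicle are given with and without these libraries, whose part in the results was not tested otherwise. Counts of sites that rest on VCaP vehicle include these libraries unless stated. An entry within 1 kb of a gene end was found in all 15 LNCaP libraries at 8 of 8 luminal prostate markers and in all 15 VCaP libraries at 7 of 8. The exception, KLK3, had one in 2 VCaP libraries. Of the 3 basal, 3 stromal and 3 immune markers, KRT14, TP63, DCN and CD79A had none in either line and KRT5, COL1A1, COL1A2, PTPRC and CD3E had one in 1 to 15 libraries of a line. The neuroendocrine markers CHGA and SYP had one in all 30.

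Entries were gathered into sites, stretches reaching 250 bp to either side of a strong summit, and the window held 496 of them. Each library's list was first shortened to the shortest of its line, and a site takes the value of the strongest entry with its summit there, as that entry's percentile rank by −log10 p. The scale runs from 0, not listed, to 100, the strongest entry of that library, and differences are in percentile points. In bulk cells, a site open in fewer cells and a site less open in each cannot be told apart. At 167 sites no library had an entry left in the shortened lists, and 148 of the other 329 had an entry in 1 library. An entry occurred in at least 1 LNCaP library at 145 sites, in at least 1 VCaP library at 285, and in both lines at 101. Sites with an entry in at least 3 libraries of a line were tested, 92 in LNCaP and 101 in VCaP, and 126 sites met this in at least 1 line.

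Of these 126 recurrent sites, 33 lay within TPD52, 31 between TPD52 and ZBTB10, 26 between ZBTB10 and ZNF704, 11 within MRPS28, 11 within ZNF704, 8 within ZBTB10 and 6 beyond MRPS28. Sites are named below by their signed distance from the ZBTB10-facing end of TPD52, position 80171564 in RefSeq on GRCh38.p14. Negative distances lie in TPD52 or beyond it, and positive ones run towards ZBTB10 and ZNF704. TPD52 itself spans 80031082 to 80171564 and ZBTB10 spans 80485593 to 80526265. At the edges of the span, the outermost recurrent sites inside it lay 0.917 and 1.94 kb from its low and high ends, with mean ranks of 59.4 in LNCaP and 90.2 in VCaP at the low end and of 86.7 and 86.4 at the high end. The nearest recurrent sites outside lay 9.21 and 8.66 kb beyond, with mean ranks of 80.4 in LNCaP and 88.1 in VCaP at the low end and of 44.6 and 30.2 at the high end.

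**Figure D1:**
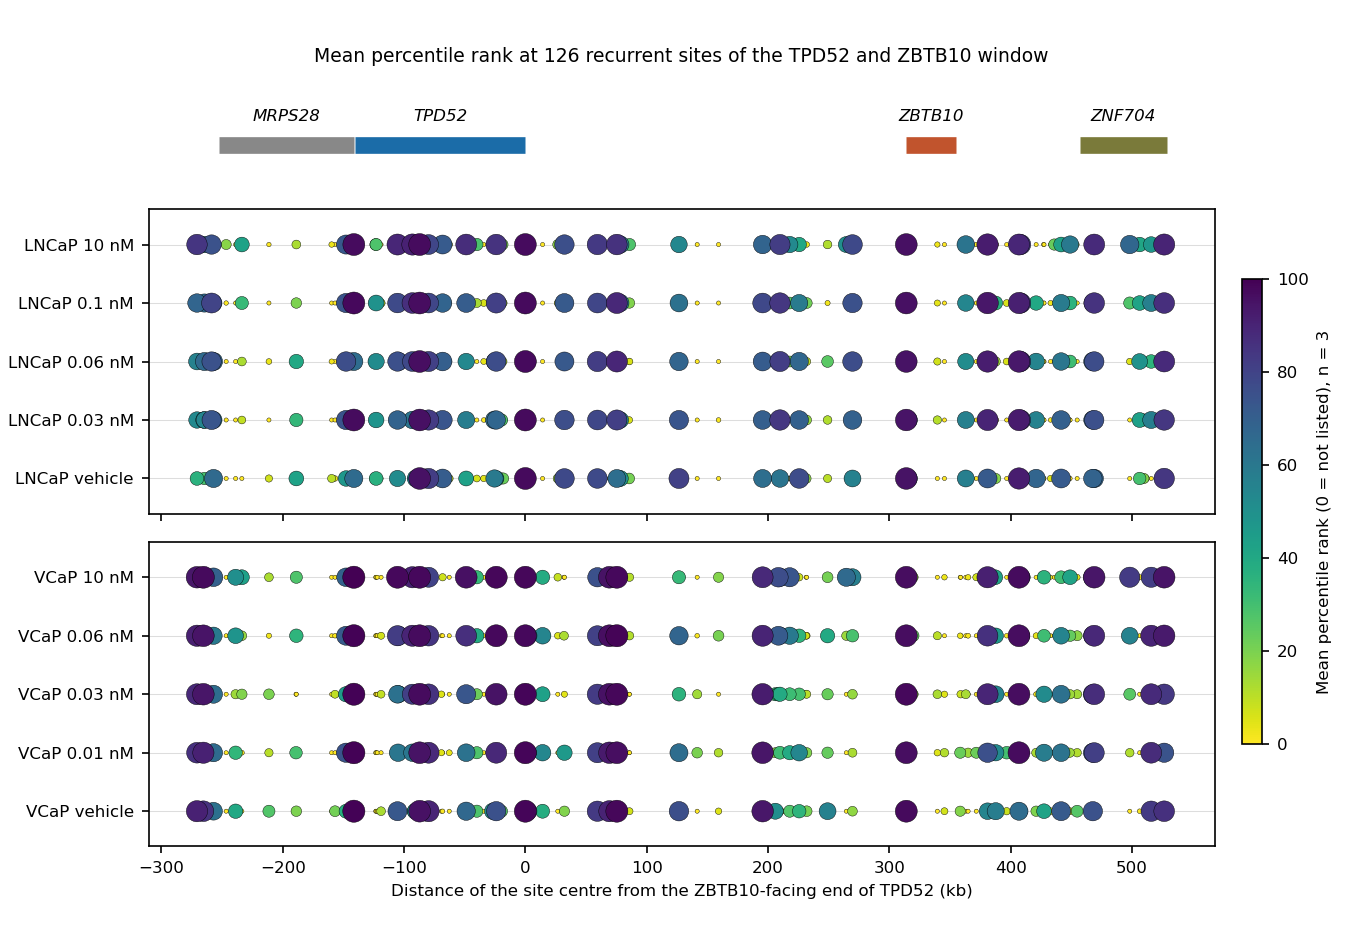
Position and mean rank of the 126 recurrent sites by group. The x axis gives the distance from the ZBTB10-facing end of TPD52 in kb, each row is 1 group of 3 libraries, and the size and colour of a circle give the mean percentile rank (0 means not listed). Bars at the top are gene bodies; that of ZNF704 runs past the window. The sites at the facing ends of TPD52 and ZBTB10, ranked 93.1 or higher in each library, keep large circles in every row. Other circles within TPD52, between TPD52 and ZBTB10 and in ZNF704 change with dose.

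Chromatin at the facing ends of TPD52 and ZBTB10 was open at a steady, high rank in both lines. The site at the ZBTB10-facing end of TPD52 (−0.009 kb, 80171305 to 80171805) ranked 95.8 to 98.8 in the 15 LNCaP libraries and 97.5 to 99.2 in the 15 VCaP libraries. The site beside the TPD52-facing end of ZBTB10 (80485267 to 80485767) ranked 93.1 to 96.7 in LNCaP and 95.3 to 98.3 in VCaP. Neither site was called in any dose contrast of either line. A site within TPD52 at −87.1 kb (80084186 to 80084686) was as steady, at 92.6 to 98.9 in LNCaP and 94.2 to 98.3 in VCaP. The site where MRPS28 and TPD52 meet (80029949 to 80030449) ranked 96.4 to 98.1 in 13 LNCaP libraries and 99.2 to 99.9 in all VCaP libraries. In LNCaP vehicle library 5 and 0.06 nM library 5 it was listed at 0, where the strongest nearby summit fell outside the 250 bp reach. In all, 15 sites had an entry in all 30 libraries, 5 of them within TPD52.

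In LNCaP, 10 nM R1881 against vehicle gave higher ranks at 22 window sites and lower ranks at 7 of the 92 tested, by limma at an adjusted p under 0.05. Over all 181181 sites tested in LNCaP, 15% were higher and 8.82% were lower (23.9% in either direction). The median difference was 2.02 points over the 92 sites and −0.09 points over all tested. Since earlier results in this contrast led to the locus, nothing is read from these counts. None of the 6 tested sites within 1 kb of a gene end was among the 29. Of the 22 higher sites, 5 lay between TPD52 and ZBTB10, 4 within TPD52, 4 between ZBTB10 and ZNF704, 4 within ZNF704, 3 beyond MRPS28 and 2 within MRPS28. None of the 6 tested inside the ZBTB10 gene body was called.

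The site with the largest difference lay within TPD52, 93.1 kb from its ZBTB10-facing end and 47.4 kb from its other end (−93.1 kb, 80078211 to 80078711). In LNCaP it ranked 11.6, 0 and 33.1 with vehicle, 68.4, 59.1 and 57.2 at 0.03 nM, 79.4, 82.2 and 73.6 at 0.06 nM, 87.5, 87.0 and 84.5 at 0.1 nM, and 90.3, 90.3 and 91.8 at 10 nM. No dose overlapped its neighbours, so the rank climbed at each step, and the largest step was that from vehicle to 0.03 nM. The fold enrichment over local background, as the authors' lists give it, was 10.0, 7.81 and 8.57 at 10 nM, against 2.38, no entry and 2.58 with vehicle. The low-dose groups averaged 75.4 ± 11.6 (SD, n = 9) and vehicle 14.9 ± 16.8 (SD, n = 3), a difference of 60.5 ± 5.25 points (SE). The lowest dose, 0.03 nM, was itself higher than vehicle by 46.7 ± 6.43 points (SE). Both differences share their vehicle libraries with the contrast that led to the locus. They are therefore descriptions and no p is given. From the low doses, 10 nM differed by 15.3 points, which did not pass (limma adjusted p = 0.0677). The difference of 75.9 points between 10 nM and vehicle exceeded that of 98.9% of the sites tested in LNCaP.

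In VCaP the same site also rose at low doses. It ranked 57.0, 0 and 6.47 with vehicle, 52.8, 56.9 and 72.9 at 0.01 nM, 79.4, 81.2 and 83.7 at 0.03 nM, 89.6, 90.7 and 90.0 at 0.06 nM, and 88.3, 92.1 and 92.3 at 10 nM. Vehicle and 0.01 nM overlapped through vehicle library 1, and 0.06 and 10 nM overlapped as well. The group at 10 nM averaged 90.9 ± 2.25 and vehicle 21.1 ± 31.2 (SD, n = 3 each), a difference of 69.7 ± 10.8 points (SE; limma adjusted p = 0.00146). The low doses together were higher than vehicle by 56.3 ± 8.79 points (SE; limma adjusted p = 0.00451). At 0.01 nM alone the difference of 39.7 points did not pass (limma adjusted p = 0.383), nor did that of 13.4 points between 10 nM and the low doses (limma adjusted p = 0.646). Without vehicle libraries 1 and 2 the difference at 10 nM was 84.4 points (limma adjusted p = 1.49e-05) and that of the low doses 71.0 points (limma adjusted p = 3.94e-05). The low-dose call in VCaP was lost when lists were limited to a −log10 q of 5 or more.

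**Figure D2:**
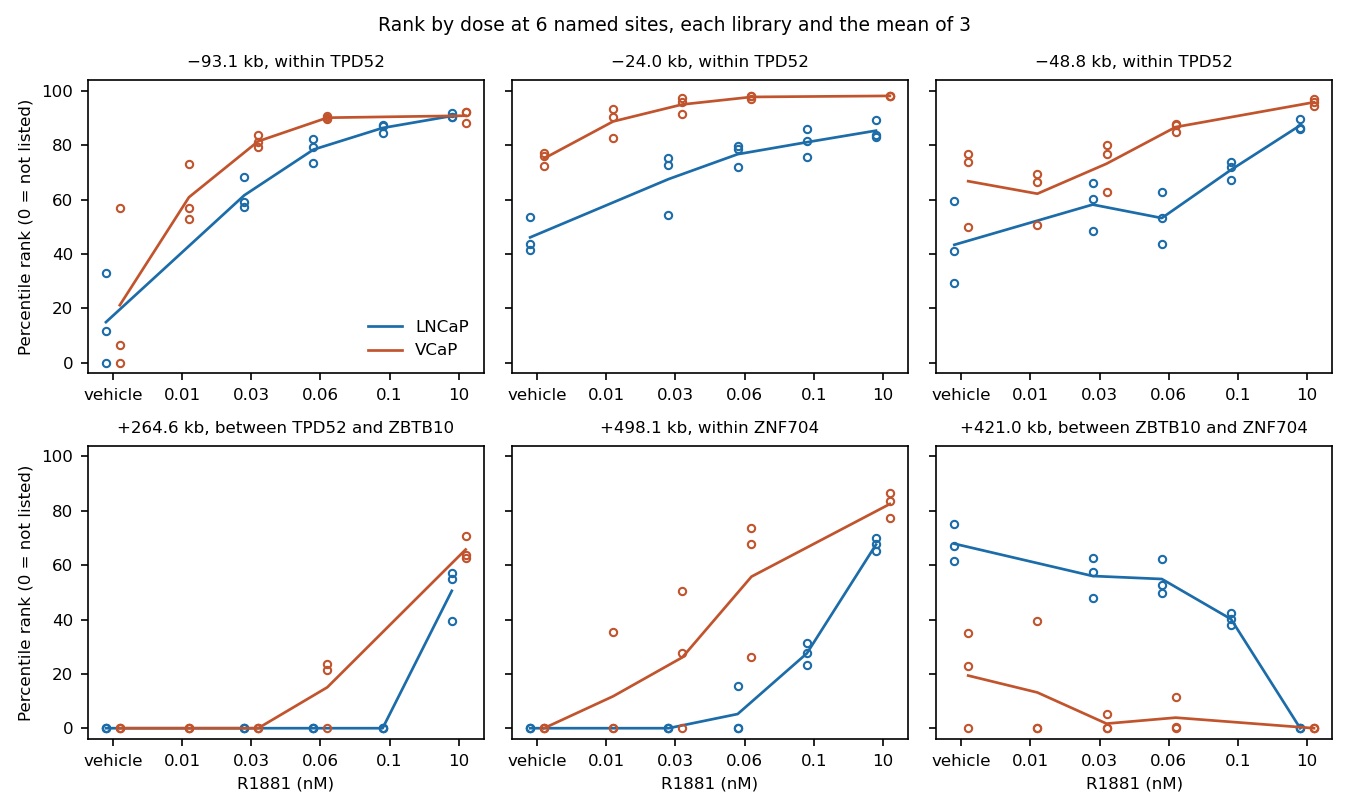
Percentile rank (0 means not listed) against R1881 dose at 6 sites, named by their distance from the ZBTB10-facing end of TPD52. Circles are libraries and lines join the means of 3, LNCaP in blue and VCaP in orange; doses are evenly spaced on the axis and LNCaP had no 0.01 nM group, VCaP no 0.1 nM group. At −93.1 kb both lines pass a mean of 60 by 0.03 nM, whereas at +264.6 kb no LNCaP library below 10 nM had an entry.

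Across the window, 13 of the 92 LNCaP sites were higher and 1 was lower in the low-dose groups than with vehicle, against 5.31% and 1.42% of all sites tested (6.73% in either direction). This contrast shares its vehicle libraries with the described one. A site that reached the 3 libraries only through the groups where it is high had to differ. The counts, and the p-values given below for single LNCaP sites against vehicle, are therefore descriptions. By single dose, 8 sites were higher and 1 lower at 0.03 nM, against 1.99% and 0.287% of all tested (2.28% in either direction). At 0.06 nM 10 were higher and 1 lower, against 4.36% and 0.568% (4.93%), and at 0.1 nM 15 were higher and 3 lower, against 6.58% and 1.76% (8.34%). Besides the −93.1 kb site, TPD52 held another at −24.0 kb (80147303 to 80147803). In LNCaP it ranked 41.3, 43.5 and 53.5 with vehicle, 72.7, 75.5 and 54.4 at 0.03 nM, 79.8, 78.5 and 71.8 at 0.06 nM, 81.6, 86.0 and 75.7 at 0.1 nM, and 89.3, 83.9 and 82.9 at 10 nM. Every treated library stood above every vehicle library, and the low doses differed from vehicle by 29.0 ± 4.28 points (SE; limma adjusted p = 0.000354).

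In VCaP the −24.0 kb site began higher and rose to the top of the lists. It ranked 72.2, 77.2 and 75.9 with vehicle, 93.2, 82.8 and 90.3 at 0.01 nM, 97.3, 96.0 and 91.7 at 0.03 nM, 98.3, 98.0 and 97.1 at 0.06 nM, and 98.1, 98.1 and 98.2 at 10 nM. No treated library overlapped vehicle. The low doses were higher than vehicle by 18.7 ± 2.10 points (SE; limma adjusted p = 0.000245) and 10 nM by 23.04 ± 2.57 points (SE; limma adjusted p = 0.000148). Without vehicle libraries 1 and 2 these differences were 17.9 and 22.2 points (limma adjusted p = 0.00898 and 0.00251).

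A neighbouring summit 0.280 kb away, at −23.7 kb, moved the other way in LNCaP. It was listed at 0 in all 12 treated libraries and at 35.9, 30.8 and 45.6 with vehicle, the 1 site called lower at the low doses (−37.4 ± 4.52 points, SE). It passed the filter through the vehicle libraries alone, so a difference was bound to appear and no p is given. When any entry overlapping the site by 1 bp counted, as a broad peak over both summits does, the sign turned and the difference was 29.0 points. Counted by overlap, the 2 summits thus had the same LNCaP values.

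Sites outside TPD52 also ranked higher at low doses than with vehicle in LNCaP, again as a description. At +75.4 kb, between TPD52 and ZBTB10 (80246715 to 80247215), LNCaP ranked 68.8, 63.4 and 60.8 with vehicle, 83.2, 77.4 and 83.7 at 0.03 nM, 88.3, 91.9 and 88.0 at 0.06 nM, 89.1, 90.4 and 87.0 at 0.1 nM, and 88.4, 85.8 and 82.6 at 10 nM. The 10 nM libraries overlapped all low-dose groups and stood above vehicle, and the low doses differed from vehicle by 22.2 ± 2.06 points (SE; limma adjusted p = 2.96e-06). VCaP libraries ranked 93.2 to 99.4 at this site, vehicle included.

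At +380.9 kb, beyond ZBTB10 (80552238 to 80552738), LNCaP ranked 89.6 to 95.3 in all 12 treated libraries, against 64.8, 73.8 and 77.2 with vehicle. The low doses differed from vehicle by 20.0 ± 1.93 points (SE; limma adjusted p = 4.63e-06), and treated and vehicle libraries did not overlap. At −258.6 kb, beyond MRPS28 (79912716 to 79913216), LNCaP ranked 65.6 to 85.4 in the treated libraries, against 0, 38.8 and 0 with vehicle, a low-dose difference of 63.1 ± 7.03 points (SE). That site passed the filter through the treated libraries, so a difference was bound to appear and no p is given. In VCaP that site had an entry in 2 libraries, both at 10 nM, with ranks of 27.7 and 23.3.

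Just outside the steady end of TPD52, the +2.2 kb site (80173558 to 80174058) ranked 0, 0 and 9.11 with vehicle in LNCaP, 47.0, 50.6 and 36.2 at 0.03 nM, 63.1, 51.7 and 33.5 at 0.06 nM, 64.0, 60.1 and 11.4 at 0.1 nM, and 54.6, 34.0 and 30.01 at 10 nM. All treated libraries stood above vehicle, and the treated groups overlapped. The low-dose difference was 43.4 ± 10.8 points (SE). This site too passed the filter through the treated libraries, so a difference was bound to appear and no p is given. The call was lost without vehicle library 3 or 4 (41.8 points), at a −log10 q of 5 or more (3.30 points) and with fold enrichment ranks (14.9 points). At +209.8 kb, on the TPD52-facing side of ZBTB10 (80381155 to 80381655), LNCaP ranked 76.7 to 87.6 in the treated libraries, against 49.3, 63.9 and 71.6 with vehicle, with no overlap. The low doses differed from vehicle there by 21.7 ± 3.54 points (SE; limma adjusted p = 0.000896). VCaP ranked 68.2, 68.2 and 59.5 at 10 nM and 0, 0 and 29.5 with vehicle at +209.8 kb, a difference that did not pass (55.4 points, limma adjusted p = 0.0842; without vehicle libraries 1 and 2, 35.8 points and 0.619).

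Other sites had an entry at 10 nM and few or none below it. An entry in each 10 nM library and in no vehicle library was found at 10 LNCaP sites, 2 of which lacked one at every low dose too. The reverse was found at 2 sites. In VCaP the first pattern was found at 4 sites, 0 of which lacked an entry at every low dose, and the reverse at 1. The shares of such sites over all tested were not computed, so nothing is read from these counts. At 10 nM against the low doses, 13 LNCaP sites were higher and 3 were lower of 92, against 8.63% and 5.23% of all sites tested (13.9% in either direction). Since this contrast shares its 10 nM libraries with the described one, its counts and p-values in LNCaP are descriptions as well.

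The +264.6 kb site (80435876 to 80436376), 49.5 kb from ZBTB10 on its TPD52-facing side, had no entry in any LNCaP library with vehicle, 0.03, 0.06 or 0.1 nM. At 10 nM it ranked 39.4, 55.1 and 57.2, with fold enrichments of 5.92, 8.91 and 9.33 in the authors' lists. The difference from the low doses, in a contrast that shares its 10 nM libraries with the described one, was 50.6 ± 5.51 points (SE). In VCaP the site was listed at 0 with vehicle, 0.01 and 0.03 nM, at 23.8, 0 and 21.4 at 0.06 nM, and at 63.8, 70.7 and 62.7 at 10 nM. The VCaP 10 nM group was higher than the low doses by 60.7 ± 9.41 points (SE) and than vehicle by 65.8 ± 11.5 points (SE), and without VCaP vehicle libraries 1 and 2 the call against vehicle was lost. In both lines every 10 nM library stood above every other. The site passed the filter through the 10 nM libraries in each line (3 of 3 entries in LNCaP, 3 of 5 in VCaP), so a difference was bound to appear and no p is given.

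The +498.1 kb site, within ZNF704 (80669429 to 80669929), climbed over a wider dose range. LNCaP libraries had no entry with vehicle or at 0.03 nM, ranked 0, 0 and 15.7 at 0.06 nM, 27.7, 31.5 and 23.4 at 0.1 nM, and 65.1, 67.7 and 69.9 at 10 nM. VCaP libraries had none with vehicle, ranked 35.3, 0 and 0 at 0.01 nM, 50.7, 0 and 27.5 at 0.03 nM, 73.6, 26.1 and 67.7 at 0.06 nM, and 83.6, 86.5 and 77.4 at 10 nM. In both lines the 10 nM libraries stood above all others. LNCaP at 10 nM was higher than the low doses by 56.7 ± 6.76 points (SE; limma adjusted p = 4.11e-05). VCaP at 10 nM was higher than vehicle by 82.5 ± 17.4 points (SE), a difference above that of 99.7% of the sites tested in VCaP. With no entry under vehicle, the site passed the filter through the treated VCaP libraries, so a difference was bound to appear and no p is given. Without vehicle libraries 1 and 2 the call was lost. Against the VCaP low doses the difference of 51.3 ± 14.2 points was near the threshold (SE; limma adjusted p = 0.0485). It was lost on leaving out any 1 of 9 libraries, at 46.4 to 53.8 points: each 10 nM library, and libraries 2 and 4 of each low dose.

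TPD52 held a further site with higher ranks at 10 nM, at −48.8 kb (80122530 to 80123030). In LNCaP it ranked 29.4, 41.1 and 59.6 with vehicle, 60.1, 48.4 and 65.9 at 0.03 nM, 53.3, 43.6 and 62.7 at 0.06 nM, 73.9, 71.9 and 67.1 at 0.1 nM, and 86.1, 86.2 and 89.7 at 10 nM. Vehicle, 0.03 and 0.06 nM overlapped. In LNCaP, 10 nM exceeded the low doses by 26.5 ± 5.90 points (SE; limma adjusted p = 0.00563), a call lost with fold enrichment ranks (18.3 points, limma adjusted p = 0.0886). The low doses together did not pass against vehicle (17.4 points, limma adjusted p = 0.102), and 0.1 nM alone did (27.6 points, limma adjusted p = 0.0253). VCaP ranked 49.8, 76.8 and 73.7 with vehicle, 69.5, 50.5 and 66.4 at 0.01 nM, 80.05, 62.6 and 76.9 at 0.03 nM, 87.3, 85.0 and 87.7 at 0.06 nM, and 95.9, 97.0 and 94.5 at 10 nM. The 10 nM group there exceeded vehicle by 29.1 ± 6.74 points (SE; limma adjusted p = 0.0127). That call was lost without vehicle library 1 (20.6 points, limma adjusted p = 0.0501), without 10 nM library 1 (29.0 points, limma adjusted p = 0.0513) and without vehicle libraries 1 and 2 together (22.2 points, limma adjusted p = 0.172).

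Between ZBTB10 and ZNF704, the +449.0 kb site (80620280 to 80620780) ranked 0 in all LNCaP libraries with vehicle and at 0.03 nM. It ranked 44.3, 27.6 and 21.3 at 0.06 nM, 33.1, 35.9 and 38.7 at 0.1 nM, and 54.9, 67.6 and 56.5 at 10 nM, above every other group (10 nM minus low doses 37.3 ± 7.31 points, SE; limma adjusted p = 0.00218). At +217.9 kb, on the TPD52-facing side of ZBTB10 (80389192 to 80389692), LNCaP had no entry with vehicle or at 0.03 nM, and ranks of 46.7, 48.6 and 63.1 at 10 nM. At 0.06 and 0.1 nM that site ranked 0 to 49.9, so the groups overlapped with 10 nM. Its difference of 37.1 ± 10.1 points from the low doses (SE; limma adjusted p = 0.0210) was lost on leaving out any 1 of the 10 nM libraries, at 31.9 to 40.1 points.

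Some sites ranked lower with androgen. At +421.0 kb, between ZBTB10 and ZNF704 (80592283 to 80592783), LNCaP ranked 67.0, 75.0 and 61.6 with vehicle, 48.0, 62.5 and 57.5 at 0.03 nM, 49.6, 62.2 and 52.9 at 0.06 nM, 42.2, 37.9 and 40.3 at 0.1 nM, and 0 in all 10 nM libraries. The 0.1 nM group stood below vehicle and the lower doses, the 10 nM group stood below all others, and 10 nM was lower than the low doses by 50.3 points (−50.3 ± 6.22, SE; limma adjusted p = 5.27e-05). The full lists still held entries there in 10 nM libraries 4 and 5, with fold enrichments of 3.44 and 3.51, which fell below the shortened lists. The call was lost at a −log10 q of 5 or more. In VCaP the site ranked 0 in all 10 nM libraries, against 35.2, 0 and 22.9 with vehicle, a difference that did not pass (limma adjusted p = 0.360; without vehicle libraries 1 and 2, −22.9 points and 0.491).

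At +225.7 kb, on the TPD52-facing side of ZBTB10 (80396985 to 80397485), LNCaP ranked 75.9, 77.1 and 78.6 with vehicle, 69.3, 74.8 and 64.6 at 0.03 nM, 61.6, 65.6 and 73.6 at 0.06 nM, 59.4, 58.1 and 58.9 at 0.1 nM, and 37.7, 37.5 and 45.6 at 10 nM. The order of the group means followed the dose, with 0.03 and 0.06 nM overlapping. Against the low doses, 10 nM was lower (−24.8 ± 3.93 points, SE; limma adjusted p = 0.000402), a call lost with all entries as deposited and at a −log10 q of 5 or more. VCaP ranked 0, 0 and 24.2 at 10 nM and 53.1, 0 and 52.1 with vehicle, which overlapped (without vehicle libraries 1 and 2, −44.1 points, limma adjusted p = 0.454).

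In VCaP, 8 of 101 window sites were higher and 1 was lower at 10 nM than with vehicle, against 5.32% and 1.7% of all 141761 sites tested (7.02% in either direction). The share higher in the window was 7.92%, and the median difference was 0 points both over the window and over all tested. Of the 8 higher sites, 3 lay within TPD52, 2 between TPD52 and ZBTB10, 2 within ZNF704 and 1 beyond MRPS28. At the low doses 2 sites were higher and 1 was lower, all 3 within TPD52, against 0.437% and 0.143% of all tested (0.581% in either direction). At 0.01 nM limma called 0 sites, with 11 at an unadjusted p under 0.05, against 0.031% higher and 0.00705% lower of all tested (0.0381%). At 0.03 nM 2 were higher and 0 lower, against 0.17% and 0.0155% (0.186%), with 12 at an unadjusted p under 0.05. At 0.06 nM 2 were higher and 1 lower, against 0.584% and 0.0868% (0.671%). At 10 nM against the low doses 3 sites were higher, at −48.8, +264.6 and +498.1 kb, and 0 lower, against 3.48% and 0.801% of all tested (4.28%), with 15 at an unadjusted p under 0.05. Of those, the −48.8 kb call (21.8 ± 5.51 points, SE; limma adjusted p = 0.0274) was lost without 0.06 nM library 2 or any 10 nM library, at 21.2 to 22.4 points.

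Without VCaP vehicle libraries 1 and 2, 4 of the 9 calls at 10 nM were left: those at −93.1, −24.0, −265.4 and +468.8 kb. The −265.4 kb site, beyond MRPS28, ranked 98.0, 98.8 and 96.0 at 10 nM and 93.1, 86.1 and 78.3 with vehicle. Its difference was 11.8 ± 2.81 points (SE; limma adjusted p = 0.0151), lost without 10 nM library 1 (11.6 points) or 2 (11.2 points) and without vehicle library 4 (7.99 points). The call was also lost with no filter on the number of libraries (limma adjusted p = 0.180) and in a fit of only the groups compared (0.0929). With fold enrichment ranks it was lost at 10.6 points (limma adjusted p = 0.0549). In LNCaP the 10 nM call at −265.4 kb was lost with 1 bp overlap (39.1 points). The +468.8 kb site, within ZNF704, ranked 94.7, 94.8 and 93.4 at 10 nM and 0, 56.9 and 65.8 with vehicle. Its difference of 53.4 ± 12.2 points (SE; limma adjusted p = 0.0188) was lost without any 1 of the 10 nM libraries, at 53.1 to 53.8 points. That call was also lost with all entries as deposited (50.8 points, limma adjusted p = 0.0738) and in a fit of only the groups compared (limma adjusted p = 0.105). The +208.6 kb site ranked 75.6, 86.1 and 68.4 at 10 nM and 0, 0 and 35.7 with vehicle, with no entry in any LNCaP library. Its call (64.8 ± 18.6 points, SE; limma adjusted p = 0.0415) was lost without any 1 of the 10 nM libraries or without vehicle library 1 or 2, at 58.9 to 68.9 points, and without vehicle libraries 1 and 2 together it was 41.0 points (limma adjusted p = 0.534).

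The 1 site lower in VCaP lay within TPD52 at −26.9 kb (80144380 to 80144880). It ranked 70.1, 38.4 and 48.4 with vehicle, 16.9, 0 and 0 at 0.01 nM, and 0 in all libraries at 0.03, 0.06 and 10 nM. The difference at 10 nM was −52.3 ± 10.7 points (SE), and no LNCaP library had an entry there. With 3 of its 4 entries in vehicle libraries, the site passed the filter through the group where it is high, so a difference was bound to appear and no p is given. Without vehicle libraries 1 and 2 it no longer reached 3 libraries and was not tested.

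Of 67 window sites tested for the 10 nM change in both lines, 7 were called higher in both, 18 were called in LNCaP alone and 42 in neither. The 7 were among 19 of the 67 called higher in LNCaP and made up every one called higher in VCaP. Over all 95865 sites tested in both lines, the shared ones were 31.5% of those higher in LNCaP and 84.3% of those higher in VCaP, and nothing is read from the window's overlap beside these shares. No site was called in opposite directions. Pearson's r between the 2 lines' differences was 0.650 and Spearman's rho 0.615 across the 67 sites, a description over sites that share libraries within each line, and 49 had the same sign. The same values were not computed over all sites tested in both lines, so this likeness is not shown to be particular to the window. The 7 shared sites lay at −265.4, −93.1, −48.8, −24.0, +264.6, +468.8 and +498.1 kb. Of these, 3 lay within TPD52, 2 within ZNF704, 1 between TPD52 and ZBTB10 and 1 beyond MRPS28.

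**Figure D3:**
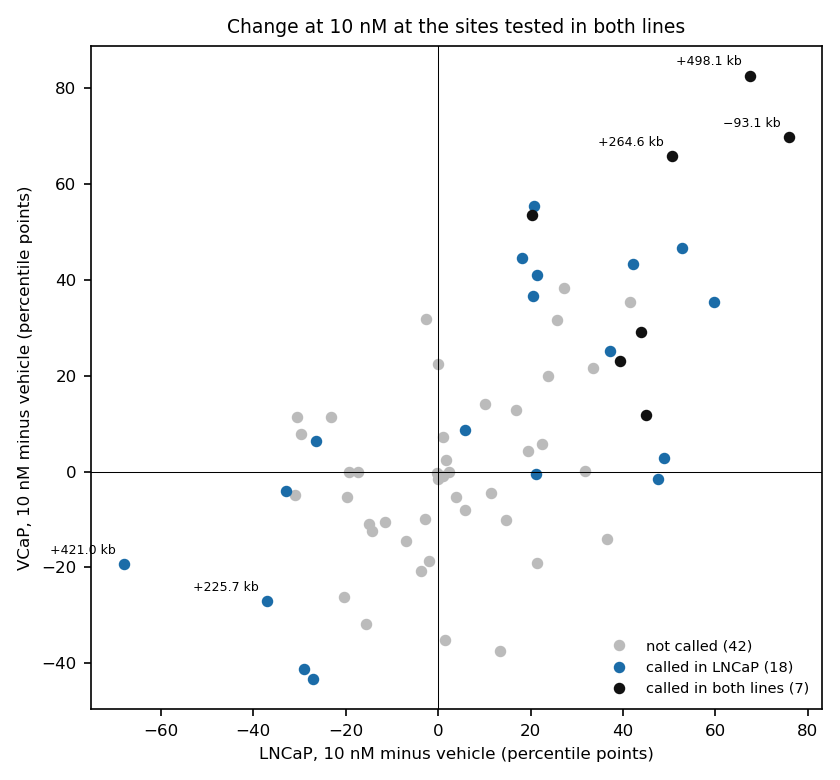
Difference in percentile rank between 10 nM R1881 and vehicle in LNCaP (x axis) and VCaP (y axis), in percentile points, at the 67 sites tested in both lines. Each point is 1 site, coloured by the lines in which limma called it at an adjusted p under 0.05. The 7 sites called in both lines all lie at upper right, and no site was called in VCaP alone.

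The 10 nM change was compared between the lines by limma at 60 window sites with an entry in at least 3 libraries of each, with all lists cut to 1 length. It differed at 3 sites, 2 higher and 1 lower in LNCaP, against 1.4% and 0.998% of all 86882 sites tested (2.4% in either direction). This difference contains the LNCaP change known when the locus was selected, so the counts and values are descriptions and no p is given. At +75.4 kb, LNCaP averaged 81.5 at 10 nM and 54.1 with vehicle, and VCaP 97.7 and 98.4, a difference between the changes of 28.0 ± 3.46 points (SE; without VCaP vehicle libraries 1 and 2, 27.1 points). At +75.4 kb VCaP stood near the top of the scale in both groups. At −270.6 kb, beyond MRPS28, LNCaP averaged 80.3 at 10 nM and 20.9 with vehicle, and VCaP 93.8 and 90.9 (56.5 ± 10.5 points, SE; without VCaP vehicle libraries 1 and 2, 52.1 points and no longer called). At +467.7 kb, within ZNF704, LNCaP averaged 16.98 at 10 nM and 59.4 with vehicle, and VCaP 70.7 and 74.9 (−38.3 ± 10.4 points, SE; without VCaP vehicle libraries 1 and 2, −33.4 points and no longer called). That call was lost without any 1 of 9 libraries, LNCaP 10 nM or vehicle libraries 4 or 5, any VCaP 10 nM library or VCaP vehicle library 1 or 2, at −41.5 to −31.7 points.

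Without androgen, the lines differed at 18 of these 60 sites, 5 higher and 13 lower in LNCaP than in VCaP, against 12.9% and 8.31% of all sites tested (21.2% in either direction). The median difference in the window was −5.77 points and over all tested 1.17 points. On lists cut to 1 length, the −265.4 kb site was not listed in LNCaP vehicle libraries and averaged 85.8 ± 7.43 in VCaP vehicle libraries (SD, n = 3; limma adjusted p = 2.09e-09). Likewise the +515.8 kb site, within ZNF704, was not listed in LNCaP and averaged 83.6 ± 12.3 in VCaP with vehicle (SD, n = 3; limma adjusted p = 3.11e-06).

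Within TPD52 the −24.0 kb site averaged 30.7 ± 8.35 in LNCaP and 75.1 ± 2.56 in VCaP with vehicle (SD, n = 3 each; limma adjusted p = 1.32e-06). The −68.2 kb site, also within TPD52 (80103099 to 80103599), ran the other way, with 62.5 ± 10.7 in LNCaP and 0.534 ± 0.925 in VCaP (SD, n = 3 each; limma adjusted p = 1.06e-06). In the lists of its own line it had an entry in all 15 LNCaP libraries, the lowest at 61.6, while VCaP ranked 0 to 20.8. At +32.2 kb, between TPD52 and ZBTB10, LNCaP averaged 71.5 ± 6.50 and VCaP 18.9 ± 21.5 (SD, n = 3 each; limma adjusted p = 4.28e-05). Without VCaP vehicle libraries 1 and 2, the calls named in this paragraph and the one before it were kept, at limma adjusted p of 6.84e-06 to 0.000523. In a fit of the vehicle libraries alone 4 sites were called, and those at −24.0 and +32.2 kb were lost (limma adjusted p = 0.0749 and 0.0837). The −24.0 kb call was lost as well at a −log10 q of 5 or more, with a difference of −0.51 points. Copy number was not measured here, and in the comparison of lines more copies of the locus and more accessible DNA cannot be told apart.

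The count of 18 sites that differed with vehicle includes VCaP vehicle libraries 1 and 2. Without them, differences at sites centred on 80381405, 80397235 and 80592533 went from 40.8, 35.6 and 39.3 points to 21.1, 18.5 and 35.7. At the site centred on 80173808 the difference went from −62.4 to −65.2 points, and at 80485517 from −3.84 to −3.07. Sites below the filter in 1 line were not part of the test of the lines with vehicle. At +69.2 kb (80240544 to 80241044), a site picked out after its values were seen, all 15 VCaP libraries ranked 83.1 to 97.7 and no LNCaP library had an entry. It was the 1 window site with an entry in all libraries of a line and none of the other.

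**Figure D4:**
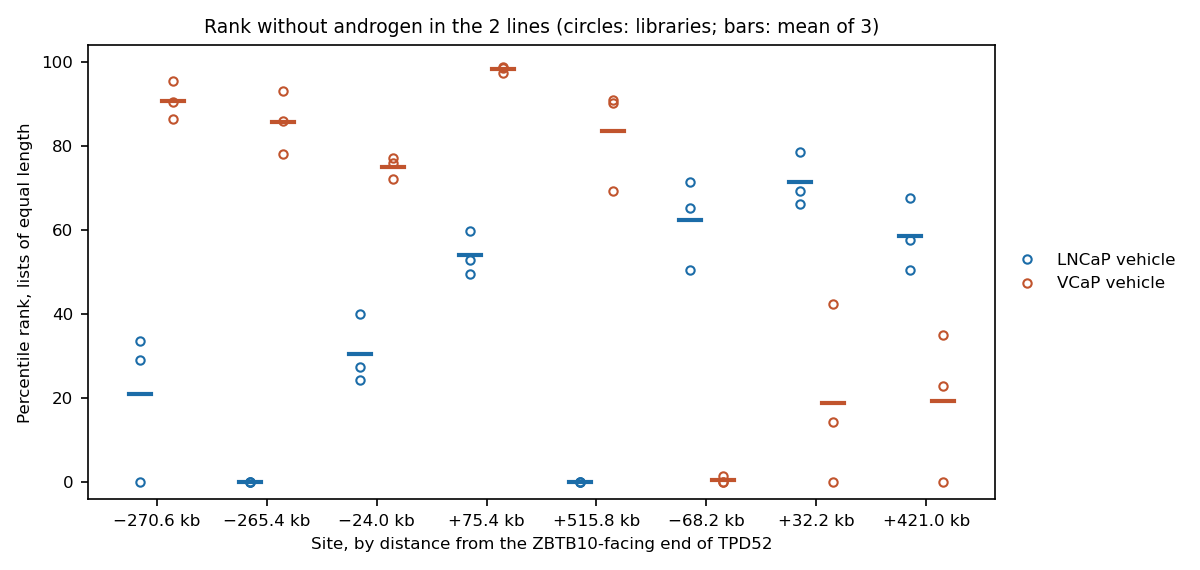
Percentile rank with vehicle, on lists cut to 1 length for both lines, at 8 sites that limma called between LNCaP and VCaP. In a fit of the vehicle libraries alone some of these calls were lost, that at the last site among them (limma adjusted p = 0.167). Circles are libraries (LNCaP vehicle in blue, VCaP vehicle in orange), bars are means of 3, and the x axis names sites by distance from the ZBTB10-facing end of TPD52. VCaP is higher at the first 5 sites and LNCaP at the last 3.

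The number of window entries in the shortened lists was not shown to move with dose. LNCaP held 69.3 ± 1.15 entries at 10 nM and 65.3 ± 6.51 with vehicle, and VCaP 78.7 ± 7.77 and 77.0 ± 7.55 (SD, n = 3 each). Over the 15 LNCaP libraries Pearson's r with dose order was 0.283 (permutation test, adjusted p = 0.624) and Spearman's rho 0.252 (adjusted p = 0.733). Over the 15 VCaP libraries r was 0.0619 (permutation test, adjusted p = 0.838) and rho 0.0603 (adjusted p = 0.835). Leaving out the 2 most distant libraries in dose order gave an r of 0.0298 in LNCaP and of 0.104 in VCaP. The 2 lines were adjusted together.

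Among the relatives of TPD52, which share its coiled-coil fold, sites near TPD52L1 were called in both directions in LNCaP at 10 nM (5 higher and 3 lower of 21), none of 5 near TPD52L2 was called, and 1 was higher and 1 lower of 4 near TPD52L3. Near TPD52 itself, 5 were higher and 1 was lower of 37, counting sites within 100 kb for which it is the nearest gene. In VCaP the counts were 1 higher and 1 lower of 10 near TPD52L1, 0 of 4 near each of TPD52L2 and TPD52L3, and 3 higher and 1 lower of 31 near TPD52. Near ZBTB10, 4 were higher and 1 was lower of 18 in LNCaP, and 1 was higher of 26 in VCaP. Of the specificity protein genes in LNCaP at 10 nM, SP1 had 1 lower of 4 sites and SP3 had 3 lower of 21. SP4 had 3 higher and 2 lower of 12. In VCaP none of their 7, 21 and 11 sites was called. Over all sites tested, 15% were higher and 8.82% lower in LNCaP at 10 nM, and 5.32% and 1.7% in VCaP. Nothing is read from the counts of single genes beside these shares. At least 1 higher site was found for 12 of 12 androgen-induced genes, TPD52 and ZBTB10 among them, in LNCaP and 9 of 12 in VCaP, and for 6 of 8 and 5 of 8 genes of the surrounding 8q21. At least 1 lower site was found for 8 of the 12 in LNCaP and 4 of 12 in VCaP, and for 7 of the 8 genes of 8q21 in LNCaP and 3 of 8 in VCaP. Over all genes with a tested site the shares with at least 1 higher site were 50.3% in LNCaP and 23.2% in VCaP. Those with at least 1 lower site were 39.3% and 9.15%. The lists were chosen with earlier results known, and TPD52 and ZBTB10 are on both the androgen-induced and the 8q21 list. Genes with more tested sites have more chances of a call, and TPD52 and TMPRSS2 had 37 each in LNCaP. The lists were not matched to all genes for this, so nothing is read from their shares.

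Of all 181181 LNCaP sites, those whose rank over the 15 libraries was most like that of the −93.1 kb TPD52 site lay nearest to CYB561D1, CCDC54, PLD6, COL14A1 and ABCC1, with Pearson's r of 0.990 to 0.994. For the +217.9 kb site, which had the largest 10 nM difference among those assigned to ZBTB10, they lay nearest to EYA4, TMEM164, THSD7A, KCNT1 and NBN, with r of 0.968 to 0.991. These are descriptions over 15 libraries that share their dose groups.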

How the data were processed

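Omni-ATAC-seq peak lists of 30 libraries were analysed, 1 per library. Per the submitters' processing notes the build was GRCh38 (hg38) and the tools were MACS2 2.2.7.1, BWA 0.7.17, deepTools 3.5.1 and Trimmomatic 0.39. The score the authors deposited is 10 times the −log10 p. The authors' lists also give the fold enrichment over local background, the −log10 p and −log10 q of each summit, and the summit's offset in bp. No reads were counted in these files, so depth is unknown and no counting interval is given.

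Over all lists, 885458 sites were placed on summits, strongest first, with a reach of 250 bp. Lists were shortened to 134964 entries in LNCaP, 104924 in VCaP, and 104924 in fits over both lines. Values are percentile ranks by −log10 p. limma 3.58.1 in R 4.3.3 (trend, robust) fitted group means to all sites of the genome with an entry in at least 3 libraries of the line, with two-sided tests and Benjamini-Hochberg adjustment over all of them; calls are at an adjusted p under 0.05. The procedure was tested on simulated data. Dose order was tested with 100000 permutations. Summits were used in place of the overlap of peaks, which is an alternative.

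Named sites are those with an entry in all libraries of a line (up to 5), the strongest at gene ends, the 4 largest separated rises and falls per contrast, those called in both lines, and those present in all 10 nM but no vehicle libraries or the reverse. The members and lists were chosen with earlier results of these data known. Other settings tried were all entries as deposited, a −log10 q of at least 5, no filter, 1 bp overlap, fold enrichment ranks, only the groups compared, a replicate block and leaving out each library. RefSeq gene positions on GRCh38.p14 gave no strand, and no sequence of this region is printed.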

Additional observations from a re-analysis of the deposited data

Results flagged for a closer look

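The change at 10 nM differed between LNCaP and VCaP at 3 window sites, by the limma threshold for the difference itself over all 30 libraries. That difference contains the LNCaP change known when the locus was selected, so the values are descriptions. At −270.6 kb the change was larger in LNCaP by 56.5 points. At +75.4 kb it was larger in LNCaP by 28.0 points, and by 22.7 points at a −log10 q of 5 or more and 13.5 points with fold enrichment ranks, neither of which passed. At +467.7 kb it was lower in LNCaP (−38.3 points), and this was not called with all entries as deposited (−15.4 points), 1 bp overlap (−10.6 points), fold enrichment ranks (−41.5 points) or only the groups compared. At these 3 sites VCaP ranked 70.7 to 98.4 on average at 10 nM and with vehicle.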

How the results depend on the processing

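Counting any entry that overlaps a site by 1 bp gave 48 called window sites for LNCaP at 10 nM against vehicle, 25 for its low doses, 28 for 10 nM against the low doses, 20, 6 and 10 for the same in VCaP, 5 for the difference between lines and 46 for the lines with vehicle. It also turned the LNCaP differences at −23.7 kb (39.3 points at 10 nM, 29.0 at the low doses) and at −265.4 kb (−3.42 points, 10 nM minus low doses). A −log10 q of 5 or more gave 7 calls for LNCaP 10 nM against the low doses, 1 for the VCaP low doses and 4 for the lines with vehicle. For VCaP 10 nM against the low doses, 1 call was left with all entries as deposited, 1 with no filter and 1 with fold enrichment ranks. No filter gave 5 calls for the difference between lines, and fitting only the groups compared gave 4 for the lines with vehicle. Without VCaP vehicle libraries 1 and 2, an alternative chosen after seeing the data in which the lone vehicle library is assumed to vary like the other groups, 4 calls were left at 10 nM and 1 for the difference between lines.

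Leaving out 1 library gave 24 to 30 calls for LNCaP at 10 nM, 13 to 15 for its low doses, 9 to 17 for 10 nM against the low doses (9 without 10 nM library 5), 5 to 9, 3 to 6 and 1 to 3 for the same in VCaP, 2 to 3 for the difference between lines and 15 to 21 for the lines with vehicle. The VCaP lows were 5 without 10 nM library 1, and 1 without 0.06 nM library 2 or any 10 nM library; its low doses had 6 without vehicle library 1 and 5 without vehicle library 4. The number of window entries moved with dose order when all entries as deposited were counted (r = 0.566 in LNCaP, permutation adjusted p = 0.0305; 0.658 in VCaP, 0.0183) and, in VCaP, at a −log10 q of 5 or more (0.847, permutation adjusted p = 0.00052). It turned to −0.16 in both lines with lists shortened by fold enrichment. Leaving out 1 library gave r of 0.160 to 0.501 in LNCaP and −0.15 to 0.307 in VCaP. The cause of these shifts was not tested.

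The replicate numbers were not used as pairs in the reported fits. Same-number correlations ran from −0.12 to 0.432 in LNCaP (median 0.139) and from 0.0327 to 0.288 in VCaP (median 0.105). They were over 0.1 in 24 of 30 and 17 of 30 pairs, and 10 of 15 and 15 of 15 libraries were closest to their own number. The reported p-values do not account for this likeness, whose cause was not tested. A replicate block gave 33, 15 and 18 calls in LNCaP, 12, 3 and 4 in VCaP, 4 for the difference between lines and 17 for the lines with vehicle, all within 1.5 times of the reported counts. Over the named sites, 982 of 1118 alternative values kept direction and call, 133 lost the call and 3 turned. A site at 0 may hold signal under the authors' calling threshold, and read depth is unknown.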
